A study of Mus musculus with 10 samples.

Results

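Messenger RNAs for 6 regulators of mRNA stability were followed in NIH-3T3 cells, an established line of mouse embryonic fibroblasts. The genes were Zfp36, Zfp36l1, Zfp36l2, Zc3h12a, Khsrp and Elavl1. They were chosen by name from knowledge of AU-rich element binding, all 6 were found by symbol among the 17053 genes of the deposited table, and all 6 passed the filter on low counts that kept 12218 genes. The wild-type cells were grown in medium with 10% newborn calf serum (NCS) and gave 10 RNA-seq libraries in 5 groups of 2 replicates, lettered A and B. One group was untreated, one received 800 µM uridine for 2 h, and the others received 800 µM 4-thiouridine (4sU) for 2 h. 4sU, a thiolated analogue of uridine, enters RNA synthesised during its presence. RNA of one 4sU group was sequenced unconverted. That of the second was alkylated with iodoacetamide at 50 °C for 20 min (SLAM), and that of the third was treated with osmium tetroxide and ammonium at 40 °C for 1 h (TUC). Both chemistries turn incorporated 4sU into a base read as cytosine, so that RNA made during labelling can be separated from RNA that was there before. The uridine and unconverted 4sU groups show the effect of the nucleoside, and the SLAM and TUC groups add that of the chemistry.

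AU-rich elements lie in the 3′ untranslated regions of many short-lived mRNAs that encode cytokines, growth regulators and early response factors. Zfp36 (tristetraprolin), Zfp36l1 and Zfp36l2 bind these elements through a pair of CCCH zinc fingers and recruit the CCR4-NOT deadenylase, after which decapping and the exosome complete decay. Khsrp (KSRP) binds AU-rich sequences through KH domains and recruits decay enzymes. Zc3h12a (Regnase-1) is a CCCH endonuclease that cuts stem-loops in inflammatory mRNAs, and Elavl1 (HuR) binds AU- and U-rich sequence and commonly stabilises the mRNA. Several mRNAs of the Zfp36 family carry such elements themselves.

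Promoter sequence was matched for 5 of the 6 genes in RefSeq (GRCm38.p6, all on the minus strand). Those of 4 genes are shown, of which Zfp36, Zfp36l1 and Zc3h12a had a share of new RNA above 0.9 and a difference between the replicate letters, and Elavl1 had neither. Each is read 5′ to 3′, ends at the annotated start (for Elavl1, before the first base of the annotated gene), and has in capitals the letters matched by a search of the 250 bases before the start on both strands.
Zfp36, chr7:28379229-28379378: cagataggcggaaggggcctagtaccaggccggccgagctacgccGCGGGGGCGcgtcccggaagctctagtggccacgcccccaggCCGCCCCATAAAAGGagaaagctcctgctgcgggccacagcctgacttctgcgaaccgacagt
Zfp36l1, chr12:80113014-80113163: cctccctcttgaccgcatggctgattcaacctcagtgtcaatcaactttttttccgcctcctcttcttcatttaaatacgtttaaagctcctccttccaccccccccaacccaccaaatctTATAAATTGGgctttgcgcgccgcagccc
Zc3h12a, chr4:125127882-125128031: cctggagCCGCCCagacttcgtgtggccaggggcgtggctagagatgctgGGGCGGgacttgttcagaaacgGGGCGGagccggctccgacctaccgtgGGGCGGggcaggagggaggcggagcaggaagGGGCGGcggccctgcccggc
Elavl1, chr8:4325141-4325250: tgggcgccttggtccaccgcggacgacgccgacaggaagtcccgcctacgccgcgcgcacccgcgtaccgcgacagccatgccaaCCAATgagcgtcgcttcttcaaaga

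Zfp36 held GCGGGGGCG, the consensus of EGR factors, 105 bases before its start. It also held a GGGCGG box at 63 bases and, overlapping it by its first base, a CArG box, the element of serum response factor, at 58 bases. The EGR consensus occurred in 2.57% and the CArG box in 1.47% of 32851 RefSeq promoters of the same length. Zfp36l1 held TATAAA at 29 bases (12.4% of promoters) and, overlapping it, CCAAT on the opposite strand at 24 bases (33.8%). Zc3h12a held 5 GGGCGG boxes between 143 and 20 bases before the start, a box found at least once in 32.7% of promoters. Elavl1 held CCAAT at 65 and at 34 bases, the latter inside the annotated gene and not shown, and Khsrp held CCAAT at 135 and GGGCGG at 189 bases. TGACTCA (AP-1), TGACGTCA (CRE) and the NF-kB site were searched too and matched none of the 5 windows, against 4.46%, 1.55% and 3.90% of all promoters.

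The libraries held 27094222 to 33785682 counts. All 8 fibroblast markers searched were expressed at 1 CPM or more (CPM being counts relative to library size), with a summed level of 18420 to 27443 CPM. Of 4 macrophage markers in the table, 2 reached 1 CPM in any library and the 4 summed to 7.50 to 16.4 CPM, with Ptprc and Lyz2 below 1 CPM throughout. Endothelial markers summed to at most 1.13 and epithelial markers to at most 0.327 CPM. Libraries of one letter deviated together. The A minus B difference correlated across genes between any pair of groups (r from 0.734 to 0.827 over 10 pairs of groups), and the labels do not say what a letter shares. Each comparison was therefore read from a fit with a term per group and, beside it, from the same fit with the letter as a block. The labels do not state whether A and B were separate cultures, and the p-values refer to the variation among these libraries, technical or not.

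Per unit of gene length, Zfp36l2 was the most abundant of the 6 mRNAs in untreated cells and Zc3h12a the least. On the scale of counts per kilobase of deposited gene length, with each library brought to the same sum, Zfp36l2 stood at 286 ± 39.2 (SD, n = 2) and Khsrp at 156 ± 11.9. Elavl1 (63.1 ± 4.65) and Zfp36l1 (58.3 ± 8.07) followed with overlapping values, from 59.8 to 66.4 and from 52.6 to 64.0. Zfp36 (13.3 ± 1.44) lay below both, and Zc3h12a (7.92 ± 3.01) was lowest, with no overlap between the pair. The canonical member Zfp36 was thus less expressed than Zfp36l1 and Zfp36l2, the other members of its family followed here, in these growing fibroblasts. In bulk RNA, fewer expressing cells and less RNA per cell cannot be told apart.

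The values that follow are CPM scaled by TMM, for A and then B of each group. Zfp36 stood at 13.4 and 14.6 in untreated cells, 11.5 and 14.4 with uridine, 12.8 and 13.2 with unconverted 4sU, 15.7 and 16.8 after SLAM, and 12.7 and 15.2 after TUC. Both SLAM libraries lay above the other 8. Its counts were whole in all 10 libraries, from 317 to 573 reads, while the other 5 genes had counts that were not whole in 4 to 6 libraries.

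Zfp36l1 stood at 61.3 and 69.9 CPM untreated, 58.0 and 66.2 with uridine, 68.9 and 80.7 with unconverted 4sU, 69.3 and 89.8 after SLAM, and 62.1 and 74.8 after TUC. Replicate B was the higher library of every group, and the ranges of all groups other than uridine against SLAM and uridine against unconverted 4sU overlapped. Zfp36l2, at a higher level, also had B above A in every group. It stood at 356 and 405 CPM untreated, 339.6 and 399.9 with uridine, 378 and 439.9 with unconverted 4sU, 404 and 519.8 after SLAM, and 336 and 409.7 after TUC. Its highest library was SLAM B, as for Zfp36l1, and its lowest was TUC A, where that of Zfp36l1 was uridine A. Over the 10 libraries the 2 paralogues tracked each other more closely than any other pair of the 6 genes (r = 0.958 on log2 CPM, a description in which the points share the letter effect).

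Zc3h12a rested on the fewest reads, from 160.5 to 458.5. It stood at 6.24 and 10.1 CPM untreated, 5.81 and 9.01 with uridine, 7.41 and 10.7 with unconverted 4sU, 10.3 and 13.5 after SLAM, and 7.63 and 10.7 after TUC. In every group B exceeded A, and the ranges of all 5 groups other than uridine against SLAM and untreated against SLAM overlapped.

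Khsrp stood at 230.1 and 239.9 CPM untreated, 222 and 232 with uridine, 212 and 242 with unconverted 4sU, 276 and 311 after SLAM, and 217 and 242 after TUC. The 2 SLAM libraries were apart from all 8 others. Elavl1 showed another pattern, with 134 and 139 CPM untreated, 139 and 142 with uridine, 143 and 156 with unconverted 4sU, 179 and 164 after SLAM, and 179 and 176 after TUC. Its 4 converted libraries were the 4 highest, and both unconverted 4sU libraries lay between them and the untreated ones. Elavl1 correlated least with the rest of the set, down to r = 0.246 with Zfp36l2.

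**Figure D1:**
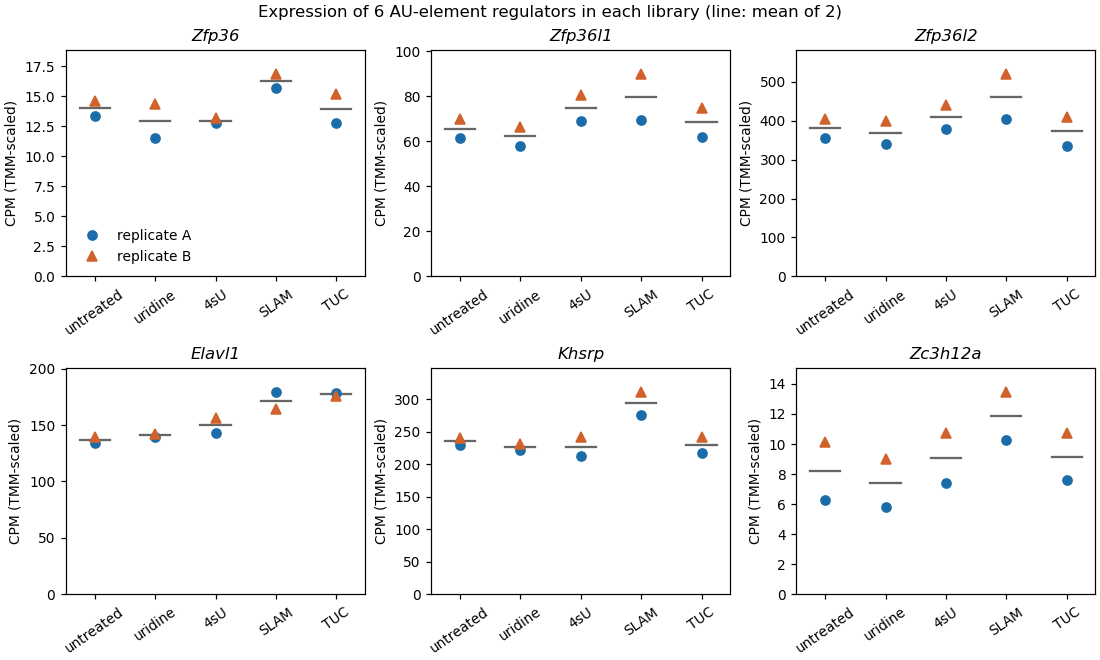
Expression of the 6 genes in each library, as TMM-scaled CPM on linear axes from 0. Circles are replicate A, triangles replicate B and lines the mean of 2. Khsrp and Zfp36 stand apart in the SLAM libraries (276 and 311, and 15.7 and 16.8 CPM), while Elavl1 is high in both chemistries.

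No difference between uridine-treated and untreated cells was detected for any of the 6 mRNAs. With edgeR 0 of 6 passed an adjusted p of 0.05 (0% of all genes tested passed), 0 of 6 had an unadjusted p under 0.05, and DESeq2 called 0. The letter block also gave 0 of 6, against 0.00818% of all genes. Fold changes of the 6 ran from -0.14 to 0.04 on the log2 scale. The 95% intervals of the blocked fit ran from -0.35 at the lowest to 0.17 at the highest. Without the block they were wider, from -0.89 to 0.62, both ends being those of Zc3h12a.

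4sU without conversion left 5 of the 6 mRNAs short of the threshold in either fit, and Zfp36l1 passed with the letter as a block. Against untreated cells 0 of 6 passed without the block in edgeR (0.164% of all genes passed), 0 had an unadjusted p under 0.05 and DESeq2 called 0. With the block Zfp36l1 was higher by 0.19 ± 0.060 (log2 fold change ± SE, adjusted p = 0.0385), where 6.97% of all genes were called higher. The rise was 0.17 within letter A and 0.21 within B. In this blocked fit 2 of 6 had an unadjusted p under 0.05, Zfp36l1 and Elavl1. Against uridine, which controls for the nucleoside load, 0 of 6 passed without the block (0.254% of all genes), 0 had an unadjusted p under 0.05, and DESeq2 called 0. With the block Zfp36l1 was higher by 0.27 ± 0.061 (adjusted p = 0.00570, with 6.48% of genes called higher), by 0.25 in A and 0.28 in B. An unadjusted p under 0.05 was held by 3 of 6 in that blocked fit, Zfp36l1, Zfp36l2 and Zc3h12a. Both comparisons share the 4sU libraries. The call against untreated cells was lost when any of the 4 libraries was left out (highest adjusted p = 0.253), and that against uridine held only without uridine A (highest 0.112).

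In SLAM libraries 5 of the 6 mRNAs were higher than in unconverted 4sU libraries with the letter as a block. The values were 0.33 ± 0.086 for Zfp36 (adjusted p = 0.00611), 0.17 ± 0.055 for Zfp36l2 (0.0197), 0.39 ± 0.096 for Zc3h12a (0.00400), 0.37 ± 0.053 for Khsrp (6.46e-05) and 0.20 ± 0.059 for Elavl1 (0.0139). Zfp36l1 stood at 0.09 ± 0.060 (adjusted p = 0.277). All 6 differences were above 0 within each letter. Called higher were 20% of all genes in this fit and 41.6% in either direction. The median of the 6 genes was 0.26, against 0.00 for all genes.

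Without the block 0 of 6 passed in edgeR, where 0.344% of all genes did, although Zfp36 and Khsrp had an unadjusted p under 0.05. DESeq2 without the block called 1 of 6, Khsrp. The Khsrp rise was the one that passed with each of the 4 libraries left out in turn in the blocked fit, from 0.34 to 0.41. The other calls were each lost on leaving out at least 1 library. For Zfp36 and Zc3h12a this was unconverted 4sU B, with estimates from 0.25 to 0.41 and from 0.31 to 0.50. Zfp36l2 lost its call without either unconverted 4sU library or SLAM B (0.10 to 0.24). The Elavl1 call was lost without unconverted 4sU A or SLAM A (0.12 to 0.28).

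TUC chemistry, set against the same unconverted 4sU libraries, gave a call for Elavl1 alone. With the block it was higher by 0.24 ± 0.059 (adjusted p = 0.00821), by 0.32 in letter A and 0.17 in B, where 11.6% of all genes were called higher. Khsrp and Zc3h12a had estimates of 0.02 each. The interval for Khsrp ran from -0.10 to 0.13 and that for Zc3h12a from -0.20 to 0.23. Without the block they ran from -0.23 to 0.26 and from -0.73 to 0.77. Without the block 0 of 6 passed (0% of all genes), 1 had an unadjusted p under 0.05 (Elavl1), and DESeq2 called 0. The blocked call held only without unconverted 4sU B, and the highest adjusted p on leaving a library out was 0.169.

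The chemistries were also compared with each other directly, and 4 of the 6 mRNAs were lower after TUC than after SLAM with the letter as a block. They were Zfp36l1 (-0.21 ± 0.061, adjusted p = 0.0202), Zfp36l2 (-0.31 ± 0.055, 0.00114), Khsrp (-0.35 ± 0.053, 0.000320) and Zc3h12a (-0.37 ± 0.097, 0.0122), where 10.1% of all genes were called lower. Zfp36 had a value of -0.22 ± 0.086 (adjusted p = 0.0819). Elavl1 had 0.05 ± 0.059 (0.636), with an interval from -0.08 to 0.17 (from -0.15 to 0.24 without the block). All 5 decay factors were lower within both letters, whereas Elavl1 stood at -0.0046 in A and 0.10 in B.

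Without the block 0 of 6 passed in the comparison of TUC with SLAM (0% of all genes), 1 had an unadjusted p under 0.05 (Khsrp), and DESeq2 called 0. In the blocked fit Zfp36l2 and Khsrp passed with each of the 4 libraries left out. The count of 4 became 3 without SLAM B and 2 without either TUC library.

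**Figure D2:**
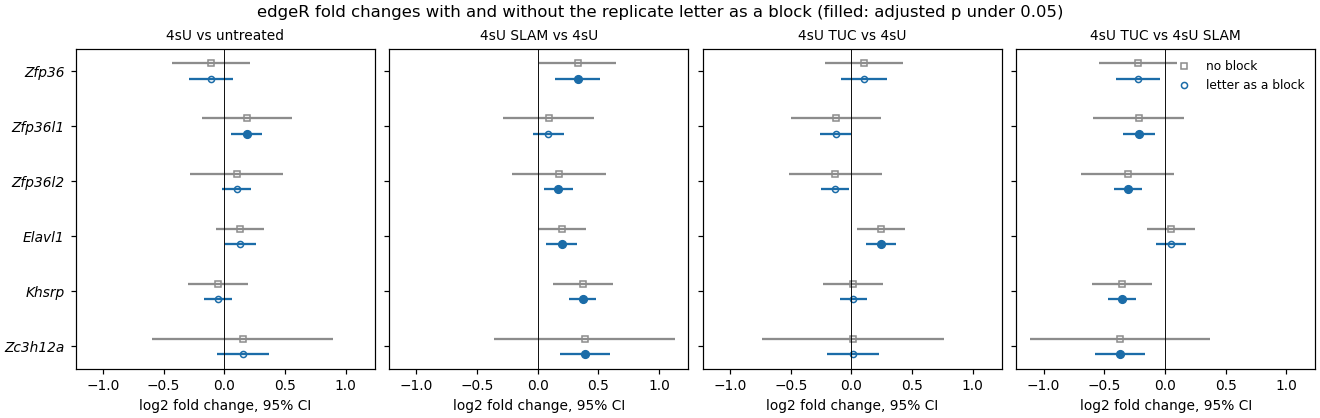
Log2 fold changes from edgeR with 95% confidence intervals for 4 comparisons. Grey squares are the fit without a block and blue circles the fit with the replicate letter as a block. Filled symbols have an adjusted p under 0.05. The estimates nearly coincide and the blocked intervals are narrower. SLAM libraries lie to the right of unconverted 4sU for all 6 genes.

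Set against untreated cells, where nucleoside and chemistry act together, Elavl1 was the one gene of the 6 called by edgeR without a block (DESeq2 without a block also called Khsrp after SLAM). It was higher after SLAM by 0.33 ± 0.085 (adjusted p = 0.0341, with 7.61% of all genes called higher and 19% called in all). It was higher after TUC by 0.38 ± 0.085 (adjusted p = 0.0452, with 1.34% called higher and 6.15% in all). The rise was 0.42 in letter A and 0.24 in B after SLAM, and 0.41 and 0.34 after TUC. With the block all 6 genes were higher after SLAM, from 0.22 for Zfp36 to 0.54 for Zc3h12a, where 29.2% of all genes were. The Zfp36 call was lost without untreated A (adjusted p = 0.0785), untreated B (0.165) or SLAM A (0.106). After TUC Elavl1 alone was (0.38 ± 0.059, adjusted p = 6.67e-05, with 25.5% of genes called higher), and the other 5 ranged from -0.04 to 0.17.

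The unblocked Elavl1 calls sat close to the threshold. After SLAM the adjusted p rose to 0.156 without untreated A, 0.131 without untreated B and 0.141 without SLAM A. It was 0.0302 without SLAM B. After TUC it lay between 0.146 and 0.224 whichever of the 4 libraries was left out. Library totals as the scale, no filter, or a fit on only the 2 groups also ended both calls. The blocked calls of Elavl1 passed in each of these leave-outs. These comparisons share the untreated libraries.

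Between the letters, 5 of the 6 mRNAs differed, a contrast added after the data were seen. In either direction 7368 of the 12218 genes tested were called. In the blocked edgeR fit Zc3h12a was 0.54 ± 0.063 higher in B than in A (adjusted p = 2.37e-06), Zfp36l2 0.26 ± 0.035 (9.60e-06) and Zfp36l1 0.25 ± 0.038 (3.56e-05). Zfp36 was 0.16 ± 0.055 higher (0.0166) and Khsrp 0.13 ± 0.034 (0.00389). Each of these 5 was higher in B in 5 of 5 groups, and 31% of all genes were called higher. Elavl1 had 0.01 ± 0.037 (adjusted p = 0.799) and was higher in B in 3 of 5 groups. The Zc3h12a gap ranged from 0.39 after SLAM to 0.69 in untreated cells. The Zfp36 call was lost on leaving out either uridine or either TUC library, up to an adjusted p of 0.0895.

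**Figure D3:**
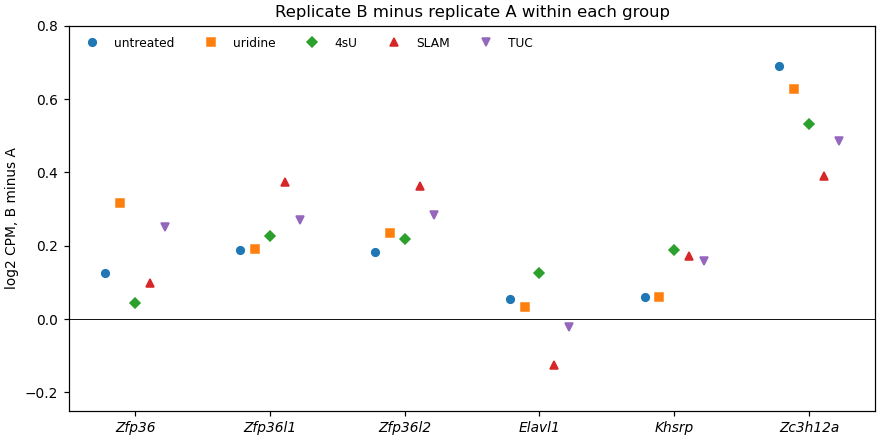
Difference of replicate B minus replicate A in log2 CPM within each of 5 groups, for the 6 genes. The 5 decay factors lie above 0 in every group, with Zc3h12a highest, from 0.39 to 0.69. Elavl1 lies on both sides of 0.

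The share of new RNA split the 6 genes into those whose mRNA was almost wholly new after the 2 h of labelling and those that kept a clear share of older RNA. The new-to-total ratio is a deposited fraction per gene, given as a posterior mode with 0.05 and 0.95 quantiles. The 4 CCCH genes had ratios from 0.922 to 1 in the SLAM and TUC libraries. Values follow as SLAM A, SLAM B, TUC A and TUC B. Zfp36 had 1, 0.958, 0.975 and 0.932, and Zfp36l1 had 0.985, 0.968, 0.997 and 0.983.

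Zfp36l2, the most abundant of the family members followed here, had ratios of 0.9986, 0.984, 0.996 and 0.990. Its quantiles were the narrowest of the 4 CCCH genes, from 0.979 to 0.988 in SLAM B. Zc3h12a, the least abundant, had 1, 0.956, 0.954 and 0.922, with a lower quantile down to 0.878 in TUC B. The mode of 1 lay above its own upper quantile for Zfp36 and Zc3h12a (0.9993) in SLAM A, so these modes are at the edge of the estimate.

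Khsrp had ratios of 0.717, 0.802, 0.758 and 0.822, and Elavl1 had 0.586, 0.665, 0.634 and 0.702. In each library the quantiles of Elavl1 lay below those of Khsrp, and those of Khsrp below those of all 4 CCCH genes. Across the 10202 genes averaging at least 100 reads the median ratio was 0.523, 0.611, 0.544 and 0.630 in the same libraries. Elavl1 therefore stood just above the middle of all genes, with 55.2% of genes lower in SLAM and 57.2% in TUC. Khsrp stood above 66.4% and 68.2%.

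The CCCH genes ranked near the top of all genes, although not uniformly. In SLAM between 94.0% (Zfp36l1) and 97.7% (Zfp36l2) of genes had a lower mean ratio. In TUC the share was 99.0% for Zfp36l2 and 98.2% for Zfp36l1, 89.1% for Zfp36 and 86.0% for Zc3h12a. A ratio of 0.9 or more was held by 18.2% to 22.0% of all genes per converted library.

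**Figure D4:**
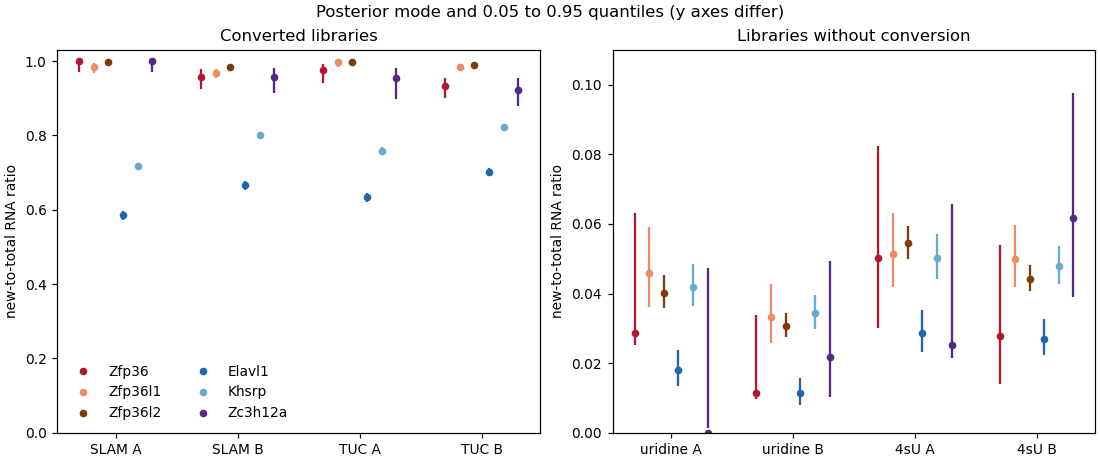
New-to-total RNA ratio of the 6 genes per library, with points at the posterior mode and lines from the 0.05 to the 0.95 quantile. The left panel holds the converted libraries on an axis from 0 to 1 and the right panel the libraries without conversion on an enlarged axis. The 4 CCCH genes lie at 0.922 or above, Khsrp between 0.717 and 0.822, and Elavl1 between 0.586 and 0.702.

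In the libraries without conversion, which give the background of the estimate, the ratios of the 6 genes ran from 0 to 0.0460 with uridine and from 0.0252 to 0.0618 with unconverted 4sU. The median over all genes there was at most 0.0194. The mode of 0 for Zc3h12a in uridine A lay below its lower quantile of 0.00140. The converted ratios of all 6 genes were far above these backgrounds.

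TUC and SLAM gave ratios that were not distinguished for any of the 6 genes. With limma on the log2 odds of the ratio 0 of 6 passed (0.265% of all genes did), and 0 had an unadjusted p under 0.05. With the letter as a block 0 of 6 passed as well (0% of all genes). The TUC minus SLAM difference was 0.27 log2 odds for Elavl1 (95% interval from -0.68 to 1.22) and 0.25 for Khsrp (from -0.76 to 1.26). For Zfp36 and Zc3h12a, whose ratios sit at the upper edge of the scale, the intervals spanned from -6.25 to 0.83 and from -6.73 to 0.26. The count became 2 without SLAM B, 2 without TUC A and 1 without TUC B, where one group is a single library assumed to vary like the other.

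Between the letters the posterior modes of the ratios moved in opposite directions. Elavl1 and Khsrp had higher ratios in B than in A after both chemistries, as did the median gene. All 4 CCCH genes had lower modes in B after both. Their quantile ranges in A and B overlapped, except for Zfp36l2 in SLAM, whereas those of Elavl1 and Khsrp were apart. For Zfp36 and Zc3h12a the SLAM A mode was the edge value of 1. This is a description of 2 pairs of libraries and was not tested.

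Under the assumptions of constant mRNA level and labelling from the first minute, the ratios correspond to half-lives. Elavl1 gave 85.2 ± 13.0 min in SLAM and 75.7 ± 10.0 min in TUC (SD, n = 2), and Khsrp 58.7 ± 10.3 and 53.4 ± 7.46 min. The median over all genes was 96.7 min. The assumption of a constant level in the cells was not tested. In unconverted 4sU libraries the difference from untreated cells passed in neither fit for Elavl1 or Khsrp. Elavl1 had an unadjusted p of 0.0388 there in the blocked edgeR fit. The ratios come from the converted libraries. In those, Elavl1 exceeded untreated cells by 0.33 after SLAM and 0.38 after TUC on the log2 scale, called in both fits. Khsrp was 0.32 higher after SLAM, called in edgeR with the block, and stood at -0.04 after TUC.

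For the 4 CCCH genes the ratio near 1 allows only an upper bound, taken from the lower quantile in each library. The bound was 16.7 to 21.6 min for Zfp36l2 and 20.0 to 26.7 min for Zfp36l1. It was 23.7 to 35.9 min for Zfp36 and 23.7 to 39.5 min for Zc3h12a. Each of these bounds is below the shortest half-life of Khsrp, 48.1 min in TUC B. The bounds rest on the same untested assumption of a constant level. For Zfp36l1 unconverted 4sU exceeded untreated cells by 0.19 in the blocked edgeR fit (adjusted p = 0.0385). For Zfp36, Zfp36l2 and Zc3h12a that difference passed in neither fit. After SLAM all 4 CCCH genes were called higher than untreated cells with the block, from 0.22 for Zfp36 to 0.54 for Zc3h12a. After TUC none of them passed, with values from -0.03 for Zfp36l2 to 0.17 for Zc3h12a.

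Multiplying level by ratio separated new from pre-existing RNA. Pre-existing Elavl1 RNA stood at 74.3 and 55.0 CPM in SLAM A and B and at 65.4 and 52.4 in TUC A and B. This was 38.3% to 54.4% of the untreated mean, and new Elavl1 RNA added 107 ± 3.01 CPM in SLAM and 118 ± 7.33 in TUC. Pre-existing Khsrp RNA stood at 78.2 and 61.6 CPM in SLAM and at 52.6 and 43.0 in TUC, 18.3% to 33.3% of untreated.

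New Khsrp RNA was 198 and 249 CPM in SLAM A and B, against 164 and 199 in TUC. Both fractions of Khsrp were thus higher after SLAM than after TUC within each letter. For Elavl1 the new fraction was lower after SLAM within each letter (105 and 109 against 113 and 124 CPM), and the pre-existing fraction was higher. In the 4 CCCH genes pre-existing RNA came to at most 10.1% of the untreated mean (Zc3h12a in TUC B).

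**Figure D5:**
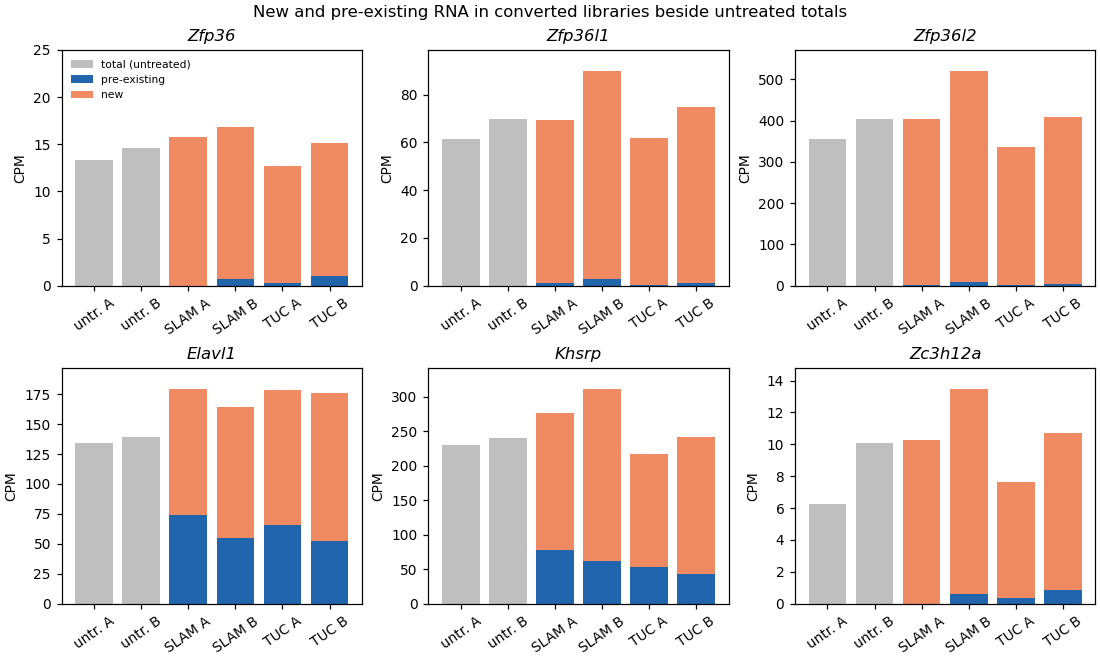
New (orange) and pre-existing (blue) RNA in CPM, stacked for each converted library, beside the total in the 2 untreated libraries (grey). Axes start at 0 and differ between genes. Pre-existing RNA is visible mainly for Elavl1 (52.4 to 74.3 CPM) and Khsrp (43.0 to 78.2 CPM).

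Genes whose log2 CPM followed each member most closely over the 10 libraries were taken from 8800 genes with a mean of 10 CPM or more. For Zfp36 they were Foxs1 (r = 0.965), Chst12 (0.957) and Ppp1r13l (0.956). For Zfp36l1 they were Col1a2 (0.961), Plpp5 (0.960) and Pcdhgc3 (0.959), and for Zfp36l2 Prag1 (0.987), Wfs1 (0.982) and Nfix (0.981). Zc3h12a was closest to Emilin2 (0.992), 2310022B05Rik (0.990) and Tmem150a (0.988). Khsrp was closest to Git1 (0.973), Foxp4 (0.971) and Dpp9 (0.964), and Elavl1 to Cyb5a (0.985), Cdk5 (0.982) and Tmub2 (0.981). These are descriptions over libraries that share letter, treatment and chemistry.

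The decay machinery that the Zfp36 proteins recruit held calls in both directions. In SLAM against unconverted 4sU every call of this and the following lists depended on the letter block, with which 20% of all genes were called higher and 21.6% lower. Without the block edgeR called 0 genes of each list, and 2 to 7 genes of a list had an unadjusted p under 0.05. With it, SLAM libraries had 1 of 18 deadenylation genes called higher and 5 lower (median -0.05). Cnot3, a CCR4-NOT subunit, was higher by 0.35, while the deadenylase Cnot6l (-0.56), the scaffold Cnot1 (-0.51) and the deadenylase Cnot6 (-0.49) were lower. Of 19 genes for decapping and 5′-to-3′ decay 3 were higher and 7 lower (median -0.11). The higher ones were Lsm4 (0.32), Lsm2 (0.30) and Dcps (0.24). The largest falls were those of the decapping enzyme Dcp2 (-0.74), the exonuclease Xrn1 (-0.52) and Ddx6 (-0.50). Of 16 exosome genes 5 were higher, led by Exosc6 (0.52) and Exosc5 (0.29), and 2 lower (median 0.01). The lower ones were Ttc37 (-0.40) and Exosc7 (-0.23).

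Of 27 other binders of RNA elements 1 was called higher in that comparison (Ptbp1, 0.18) and 15 lower (median -0.28). The largest falls were those of Elavl2 (-0.69), a paralogue of Elavl1, and of the cytoplasmic polyadenylation factors Cpeb4 (-0.63) and Cpeb3 (-0.58). In TUC against SLAM 12 of these 27 were higher, where 10% of all genes were, and 2 lower (median 0.18), again with the block. Without it edgeR called 0 of the 27, and 5 had an unadjusted p under 0.05. A further list held p38-MK2 kinases, which phosphorylate Zfp36 proteins, 14-3-3 proteins, which then bind them, and phosphatases. Of its 18 tested genes 6 were higher and 1 lower in SLAM against unconverted 4sU (median 0.05). The largest rises were those of the phosphatase subunits Ppp2r1a (0.34) and Ppp2cb (0.18) and the kinase Mapkapk5 (0.28). The 14-3-3 gene Ywhag was lower (-0.23).

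Messenger RNAs described as carrying AU-rich elements, or as bound by Zfp36, HuR or Regnase-1, mostly shared the high new-RNA ratio of the CCCH genes. They were listed by name with earlier results of these data known, and many are known to be short-lived, so this is a description. Exceptions included Tfrc (0.313) and Hif1a (0.645). The median ratio of this list was 0.972 over 29 genes, and 24 had 0.9 or more, against a median of 0.577 over all genes. The deadenylation list had a median of 0.827, the other binders 0.619 and the exosome 0.517. With unconverted 4sU against untreated cells and no block, 2 of 32 mRNAs of the AU-rich list were called. Both were higher, where 0.164% of all genes were called. They were Cdkn1a, an inhibitor of cyclin-dependent kinases (1.48), and Ptgs2, an inducible cyclooxygenase (0.86). Il6 (0.56, adjusted p = 0.700), Cxcl1 (0.23, 0.803), Fos (0.30, 0.794) and Myc (-0.18, 0.827) did not pass. With the block 9 of 32 were higher and 3 lower, where 6.97% of all genes were higher and 12.9% lower. The 3 lower were the transferrin receptor Tfrc (-0.53), the anti-apoptotic factor Mcl1 (-0.40) and the hypoxia factor Hif1a (-0.24). In SLAM against unconverted 4sU, with the block, 6 of 32 were higher, led by Myc (0.48), and 5 were lower, led by Ptgs2 (-0.39), shares close to or below the 20% and 21.6% of all genes. Without the block 0 of 32 passed.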

How the data were processed

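Per the submitters' processing notes, cutadapt, Bowtie2 2.3.0 and STAR 2.7.10b were used. Build, annotation, counter, strand setting and ratio tool were not given in the sources used here. The authors deposited expected counts per gene, per the file headers and values, and a fraction (posterior mode and quantiles) for 8 libraries. The headers do not name the fraction, which is taken as the new-to-total RNA ratio. In all, 24 further columns of values per library were not used.

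Expected counts were rounded. Genes kept by filterByExpr (12218) were TMM-scaled. The test was edgeR's quasi-likelihood F (version 4.0.16 under R 4.3.3) in 1 fit over 10 libraries, with Benjamini-Hochberg adjustment over all genes and a threshold of 0.05. Alternatives were the replicate letter as a block, other scalings and filters, 2 groups alone, DESeq2 1.42.0, and leaving out each library. The letters were taken to pair libraries because every pair of groups correlated in A minus B (r 0.734 or more). Ratios were clipped to 0.001 to 0.999 and tested as log2 odds with limma 3.58.1 over 10202 genes with 100 reads or more on average. Counts per kilobase used the deposited gene length, whose kind is not stated. The edgeR and limma tests without a block were checked on simulated data that held no letter effect. The simulated counts had less spread than the common estimate here, and the planted changes were larger than those of the members. Few simulated ratios lay near 1. The check therefore does not cover changes or ratios like those of the members. The blocked fits were not checked in this way. Nearest genes by correlation were the 3 highest on log2 CPM with a prior count of 2. From each gene list up to 3 called genes each way were named, those with the largest change, plus Il6, Cxcl1, Ptgs2, Fos and Myc. Members and lists were chosen with earlier results of these data known.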

Additional observations from a re-analysis of the deposited data

How the results depend on the processing

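The letter block decided most calls. With it the number of the 6 genes called went from 0 to 1 (4sU against untreated), 0 to 1 (4sU against uridine), 0 to 5 (SLAM against 4sU), 0 to 1 (TUC against 4sU), 0 to 4 (TUC against SLAM) and 1 to 6 (SLAM against untreated). It changed no other call of a comparison. The block with RLE factors gave 1, 2, 5, 1, 4 and 6 in the same order. With library totals it gave 1 (4sU against uridine), 4, 1, 3 and 5, and with DESeq2 1, 5, 1, 3 and 5. Without a block DESeq2 called 1 gene in SLAM against 4sU and 2 in SLAM against untreated, and library totals, no filter and a fit on 2 groups each gave 0 in SLAM and in TUC against untreated (1 each otherwise). Leaving out 1 library, over fits with and without the block, gave 0 to 1 (4sU against uridine), 0 to 5 (SLAM against 4sU), 0 to 1 (TUC against 4sU), 0 to 4 (TUC against SLAM), 0 to 6 (SLAM against untreated), 0 to 1 (TUC against untreated) and 0 to 2 (ratio, TUC against SLAM). Zfp36l2 in SLAM against 4sU turned to -0.017 without SLAM B and the block (up to 0.35 without SLAM A). The causes were not tested. Half-lives of Elavl1 and Khsrp from the quantiles stayed within 1 SD. Over all genes, SLAM against 4sU called 42 without the block, 22 with library totals, 27 with 100 counts or more, 0 with 2 groups, 693 with DESeq2 and 5079 with the block. The other comparisons changed likewise with the block, to 2432 from 20 (4sU against untreated), 2412 from 31 (4sU against uridine), 3151 from 0 (TUC against 4sU), 2458 from 0 (TUC against SLAM), 7217 from 2316 (SLAM against untreated) and 6366 from 752 (TUC against untreated). DESeq2 without the block called 241, 275, 15, 183, 3017 and 1685 in the same order, and a fit on 2 groups 1, 0, 0, 0, 3 and 152. Depth limits Zc3h12a most, at 160.5 to 458.5 reads.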
